A study of Mus musculus with 2 samples.

Results

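The genes described here encode the major histocompatibility complex (MHC) class I molecule and the proteasome parts that supply it with peptides, as measured in the kidney of newborn mice. The list names 9 genes: B2m, H2-K1, H2-D1, Psmb8, Psmb9, Psmb10, Tap1, Psme1 and Psme2. The members were selected on their levels by cell type in these libraries, so the order of levels among cell types is given as a description and no test was run on it. Of the 9 genes, 8 were measured in both libraries, among 8930 genes listed for both; the deposited lists spell them b2m, h2-k1, h2-d1, psmb8, psmb9, psmb10, psme1 and psme2. Tap1, a peptide transporter gene that overlaps Psmb9 on the opposite strand, was not in the gene lists and was not analysed here.

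Class I molecules carry peptides from inside the cell to its surface, where cytotoxic T cells and natural killer cells read them. Each molecule joins a heavy chain, here from H2-K1 or H2-D1, to the light chain beta-2 microglobulin, the product of B2m. Most cells cut proteins with a standard proteasome whose catalytic subunits come from Psmb5, Psmb6 and Psmb7. Interferon, or a blood cell origin, brings in the inducible subunits Psmb8, Psmb9 and Psmb10, which replace them in the immunoproteasome. The activator PA28, built from the products of Psme1 and Psme2, docks on the proteasome and speeds peptide release.

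Whole kidneys of C57BL/6J mice at postnatal day 2 were profiled in 2 single-cell libraries. The control library held kidney cells of control mice and the exposed library those of mice labelled DM_Exp, whose source is given as exposed to maternal diabetes. The labels speak of male mice, of pooled cells and of 1 kidney, and leave unclear how many animals went into each. The way the mothers' diabetes was brought about was not given in the sources used here. With 1 library per group, a difference between the libraries has no replicate check, so no p-value was computed and no difference can be assigned to the exposure rather than to the animal or the preparation. Intervals in parentheses are 95% intervals for counting error only.

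The control library held 9071 cells with 39442253 unique molecular identifiers (UMIs, 1 per captured transcript), and the exposed library 5494 cells with 28381167. Median UMIs per cell were 3523 and 4346, and median mitochondrial shares were 6.97% and 5.25%. The libraries shared 14 cell barcodes, 0.255% of the exposed library's. Levels are in CPM, the UMIs of a gene per 1000000 UMIs of the shared genes, both summed over the cells of a cluster. The kit tags 1 end of each transcript, so levels do not scale with gene length, although capture can differ between genes.

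The authors deposited 10 numbered clusters for each library, which were named here from marker genes. The cluster with the highest CPM of all 8 genes was a mixture of white blood cells, with 181 control and 117 exposed cells. In it 13 macrophage and 5 neutrophil markers passed the marker rule, and it is called the myeloid cluster. Its macrophage-like share, from clustering both libraries together, was 56.9% of control and 72.6% of exposed cells. The endothelium-like cluster (16 markers) held 710 and 491 cells. Stroma-like cells numbered 2670 and 1614, podocyte-like cells 354 and 254, and proximal tubule-like cells 471 and 174. A distal and intercalated-like cluster held 501 and 374 cells. The largest cluster, with 3335 and 1963 cells, is called nephrogenic, since it joined nephron progenitor-like cells to differentiating nephron, ureteric bud and loop cells. Clusters rich in mitochondrial UMIs (148 and 148 proximal tubule-like cells, and 128 distal tubule-like cells in the control) and unnamed clusters (573 control cells, 168 and 191 exposed cells) made up the rest. They held few UMIs of most members, and statements about the named classes leave them out.

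All 8 genes were highest in the myeloid cluster of both libraries. Of all measured genes, 9.94% had their highest level there in control and 9.95% in exposed cells. For 7 of the 8, the exception being H2-K1, the endothelium-like cluster came next, an order that 2.97% of all genes had in control and 3.38% in exposed cells. Myeloid and endothelium-like intervals overlapped only for Psme2, and only in the control. The genes differed in how far the other cell types stayed below. Psmb8 and Psmb9 were near 0 CPM in podocyte-like and proximal tubule-like cells, B2m and the heavy chains had UMIs in every named class at unequal levels, and Psme1 and Psme2 varied least.

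**Figure D1:**
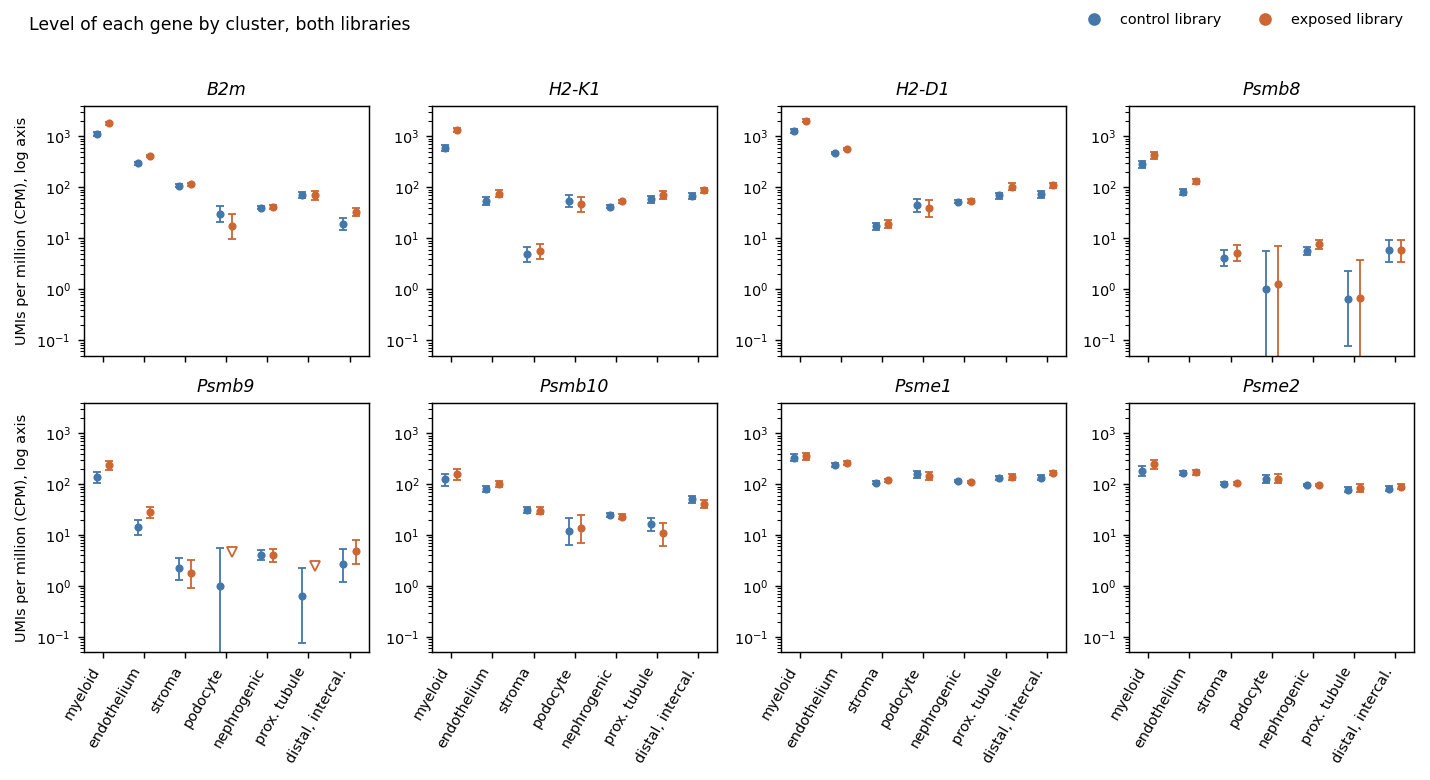
Level of each gene (CPM, log axis) in the authors' clusters, with the control and the exposed library side by side and 95% Poisson intervals; an open triangle marks a cluster with 0 UMIs, drawn at its upper limit. B2m reached 1118 and 1799 in the myeloid cluster, and Psmb8 was at most 7.70 in the drawn clusters other than the myeloid and endothelium-like ones.

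B2m lies at chr2:122147686-122153083 on the plus strand of mm10 (GRCm38). H2-K1 (chr17:33996017-34000347, minus strand) and H2-D1 (chr17:35262730-35267499, plus strand) lie at different ends of the mouse MHC, and Psmb8 (chr17:34197721-34201454, plus strand) lies inside it beside Psmb9 (chr17:34181987-34187764, minus strand). Psmb10, at chr8:105935735-105938444 on the minus strand, sits outside the MHC, as do Psme1 (chr14:55578123-55581529, plus strand) and Psme2 (chr14:55587441-55591113, minus strand). B2m, Psmb8, Psmb9, Psmb10 and Psme1 overlap a gene on the other strand (Patl2, Gm20496, Tap1, Gm16156 and Emc9 in turn), and whether the counting used strand was not given in the sources used here, so reads of overlapping genes cannot be told apart.

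The 250 bases before the RefSeq start sites (GRCm38.p6) of B2m, H2-K1, H2-D1 and Psmb8 are printed because these genes were high together in the myeloid cluster and hold short motifs of the kinds known from class I and interferon-regulated promoters. Capitals mark matches on either strand to AAANNGAAA or GAANNGAAA (interferon-response type), GGGATTCCC or GGANNTTCC (NF-kappaB type), TGACGC (part of site alpha of class I promoters) and TTCNNNGAA (cytokine-response type). The windows are chr2:122147437-122147686 (plus strand) for B2m, chr17:34000334-34000583 (minus strand) for H2-K1, chr17:35262844-35263093 (plus strand) for H2-D1 and chr17:34197945-34198194 (plus strand) for Psmb8.
B2m: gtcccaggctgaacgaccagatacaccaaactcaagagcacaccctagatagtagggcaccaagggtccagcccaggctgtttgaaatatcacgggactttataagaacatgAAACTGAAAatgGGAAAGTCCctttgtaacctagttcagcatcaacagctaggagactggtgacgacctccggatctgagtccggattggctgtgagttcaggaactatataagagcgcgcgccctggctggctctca
H2-K1: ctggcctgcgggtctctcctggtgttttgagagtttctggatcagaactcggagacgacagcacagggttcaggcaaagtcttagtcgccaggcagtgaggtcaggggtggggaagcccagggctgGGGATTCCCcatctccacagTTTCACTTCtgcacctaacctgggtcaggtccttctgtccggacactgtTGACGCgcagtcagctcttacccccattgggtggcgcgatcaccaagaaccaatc
H2-D1: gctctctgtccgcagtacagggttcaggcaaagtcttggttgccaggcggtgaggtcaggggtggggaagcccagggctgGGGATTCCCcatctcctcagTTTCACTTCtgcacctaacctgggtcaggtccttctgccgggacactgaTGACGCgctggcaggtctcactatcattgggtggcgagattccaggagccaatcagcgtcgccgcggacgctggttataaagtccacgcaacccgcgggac
Psmb8: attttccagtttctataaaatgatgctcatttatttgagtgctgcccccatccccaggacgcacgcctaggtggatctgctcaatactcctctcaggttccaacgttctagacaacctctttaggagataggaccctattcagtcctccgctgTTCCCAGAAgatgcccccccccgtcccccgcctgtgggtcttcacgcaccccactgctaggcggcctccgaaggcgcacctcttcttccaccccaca
Over 192 aligned bases, the H2-K1 and H2-D1 windows were identical at 172, or 89.6%. Both hold GGGATTCCC, which is found in 99 of 32851 promoter windows of this length (0.301%), then GAANNGAAA on the reverse strand (6.31% of windows) and TGACGC (6.12%). B2m holds AAANNGAAA (9.37%) and just after it GGANNTTCC on the reverse strand (3.59%), and Psmb8 holds TTCNNNGAA (7.02%). Psme2 holds TGACGC, and none of the motifs was found in the windows of Psmb9, Psmb10 and Psme1. The motifs were chosen after the sequences were seen, and a match is a description of the letters, not a measured site.

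B2m, the light chain gene, stood at 1118 CPM (1024 to 1219) in the control and 1799 (1671 to 1933) in the exposed myeloid cluster. The endothelium-like cluster had 295 (275 to 317) and 412 (386 to 440.2), so the myeloid level was 3.79 and 4.36 times as high. At least 1 B2m UMI was found in 84.5% and 93.2% of myeloid cells and in 54.5% and 73.3% of endothelium-like cells. Below these clusters came stroma-like cells with 107 and 115 CPM, then proximal tubule-like cells with 69.6 and 69.4. Nephrogenic cells had 40.1 and 40.7, podocyte-like cells 30.5 and 17.8, and distal and intercalated-like cells 19.0 and 33.1. The myeloid, endothelium-like and stroma-like classes were thus the 3 highest in both libraries, and the order of the lowest classes differed between them.

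H2-K1, the heavy chain of the K locus, had 597 CPM (529 to 672) in control and 1326 (1217 to 1443) in exposed myeloid cells, found in 63.0% and 88.0% of cells. No other named class was near these values. The next, distal and intercalated-like cells, had 68.7 and 87.4, a gap of 8.69 and 15.2 times. Behind it were proximal tubule-like cells with 58.0 and 71.5, endothelium-like cells with 53.8 and 75.3, podocyte-like cells with 53.8 and 46.9 and nephrogenic cells with 41.5 and 53.0. In the control, intervals of neighbours overlapped among distal and intercalated-like, proximal tubule-like, podocyte-like and endothelium-like cells, so the order of neighbours is not resolved. The control endothelium-like level was 1.295 times the nephrogenic level (1.07 to 1.56). Stroma-like cells stood apart at the bottom of the named classes with 4.87 and 5.56.

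H2-D1, the heavy chain of the D locus, had 1279 CPM (1178 to 1386) and 2041 (1905 to 2184) in the myeloid cluster. Its endothelium-like level was 473 (447 to 500) in control and 561 (530 to 593) in exposed cells, with a UMI in 65.1% and 75.0% of cells. The other classes were lower: distal and intercalated-like cells had 72.5 and 109.6, proximal tubule-like cells 69.3 and 102.5, nephrogenic cells 52.2 and 54.1, podocyte-like cells 44.7 and 39.3, and stroma-like cells 17.2 and 19.0. Of the 341 exposed H2-D1 UMIs in distal and intercalated-like cells, 45 came from 1 cell; without the 5 cells with most UMIs the values were 68.3 and 90.8. In the exposed library the endothelium-like level was 29.6 times the stroma-like level for H2-D1 (24.4 to 36.1), against 13.6 times for H2-K1 (9.32 to 20.2) and 3.59 times for B2m (3.25 to 3.97), intervals that do not overlap. The control had the same order.

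The clusters made from both libraries together resolved a gradient in the heavy chains that lay only in part inside the nephrogenic cluster. Of the cells in the joint loop and distal tubule class, 682 control and 376 exposed cells were nephrogenic. Another 501 and 323 were in the distal and intercalated-like cluster. In nephron progenitor-like cells (666 and 418 cells), H2-K1 stood at 12.4 CPM (8.60 to 17.4) and 18.8 (13.3 to 25.8), and H2-D1 at 9.86 (6.50 to 14.4) and 17.3 (12.1 to 24.1). Early differentiating cells with Wnt4 and Lhx1, genes of the first epithelial step, had 20.6 and 22.9 CPM of H2-K1 and 21.5 and 22.5 of H2-D1. Cells with Irx1 and Epcam had 54.6 and 52.0 of H2-K1 and 57.8 and 57.5 of H2-D1, and cells with Osr2 and Cdh6 had 66.5 and 108.5 of H2-K1. Loop of Henle-like cells with Slc12a1 and Umod had 75.3 and 98.5 of H2-K1 and 85.5 and 95.9 of H2-D1. So, in both libraries, the last 3 clusters had higher levels of H2-K1 than the progenitor-like cells by a margin outside the counting intervals, and the early differentiating cells lay between.

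B2m did not follow that gradient. It had 33.2 and 31.7 CPM in progenitor-like cells, 26.0 and 25.5 in early differentiating cells, 22.2 and 33.2 in the Osr2 and Cdh6 cells, 23.5 and 22.4 in the Irx1 and Epcam cells and 29.1 and 24.6 in loop-like cells. B2m was higher in proximal tubule-like cells, at 65.6 and 60.6, and in the ureteric lineage, which forms the collecting duct. Urothelium-like cells (41 and 5 cells) had 74.7 and 95.2, and cells with Tagln, Pcp4 and Wt1 had 38.4 and 53.7. Bud tip-like cells with Ret and Wnt11 had 77.9 and 89.8 CPM of B2m, and collecting duct-like cells with Aqp2 had 87.6 and 90.1. The ureteric clusters also had more H2-D1 than H2-K1, with 101.3 and 96.9 against 60.3 and 73.3 in bud tip-like cells.

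**Figure D2:**
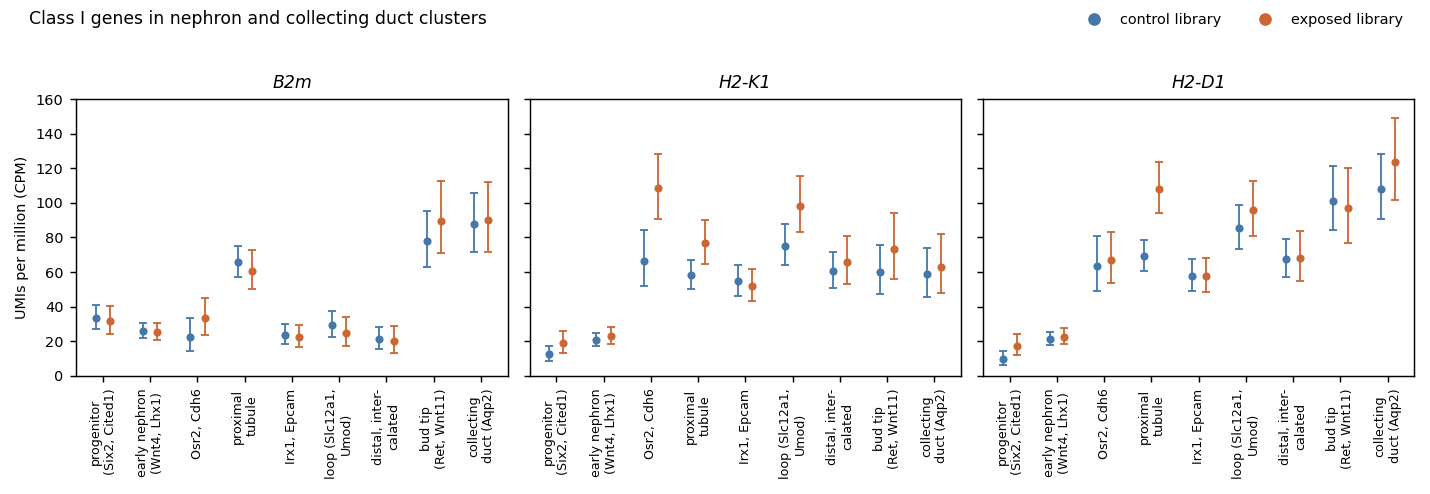
Levels of B2m, H2-K1 and H2-D1 (CPM, with 95% Poisson intervals) in the clusters of nephron and collecting duct cells, both libraries side by side, ordered from progenitor-like to differentiated nephron and then the ureteric lineage. H2-K1 was 12.4 and 18.8 in progenitor-like cells and 75.3 and 98.5 in loop-like cells, while B2m was 33.2 and 31.7 against 29.1 and 24.6.

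Light and heavy chain transcripts were therefore in unlike proportion from one cell type to the next. For each UMI of H2-K1 or H2-D1 there were 0.60 UMIs of B2m in control and 0.53 in exposed myeloid cells, and 0.56 and 0.65 in endothelium-like cells. Stroma-like cells had 4.82 (4.09 to 5.70) and 4.69 (3.92 to 5.63). Among the named classes of the authors' clusters, only there did light chain transcripts outnumber those of both heavy chains. The joint class of pericyte, smooth muscle and renin-like cells had 104.4 and 121.5 CPM of B2m. Its heavy chains were lower, at 7.40 and 10.6 for H2-K1 and 25.5 and 24.7 for H2-D1. Joint progenitor-like cells had 33.2 and 31.7 of B2m, 12.4 and 18.8 of H2-K1 and 9.86 and 17.3 of H2-D1. High-mitochondrial proximal tubule-like cells had 1.92 and 1.16, from 25 and 29 B2m UMIs. At the other end, distal and intercalated-like cells had 0.13 and 0.17, and podocyte-like cells 0.31 and 0.21. UMIs of different genes need not be captured with equal efficiency, so the ratio is read between cell types and not as a ratio of molecules.

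The choice of heavy chain also differed. H2-K1 made up 10.2% of the H2-K1 and H2-D1 UMIs in control endothelium-like cells and 11.8% in exposed ones. In the myeloid cluster the share was 31.8% and 39.4%, and in exposed stroma-like cells 22.7%. Epithelial classes had more even shares, with 54.6% and 54.4% in podocyte-like cells, 44.3% and 49.5% in nephrogenic cells and 48.7% and 44.4% in distal and intercalated-like cells. The 2 heavy chain genes are close relatives, and 10.2% of the 50-base words in the last 400 bases of H2-K1 transcripts and 10.1% of those of H2-D1 also occur in another gene, so some reads may have been lost or split between relatives.

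**Figure D3:**
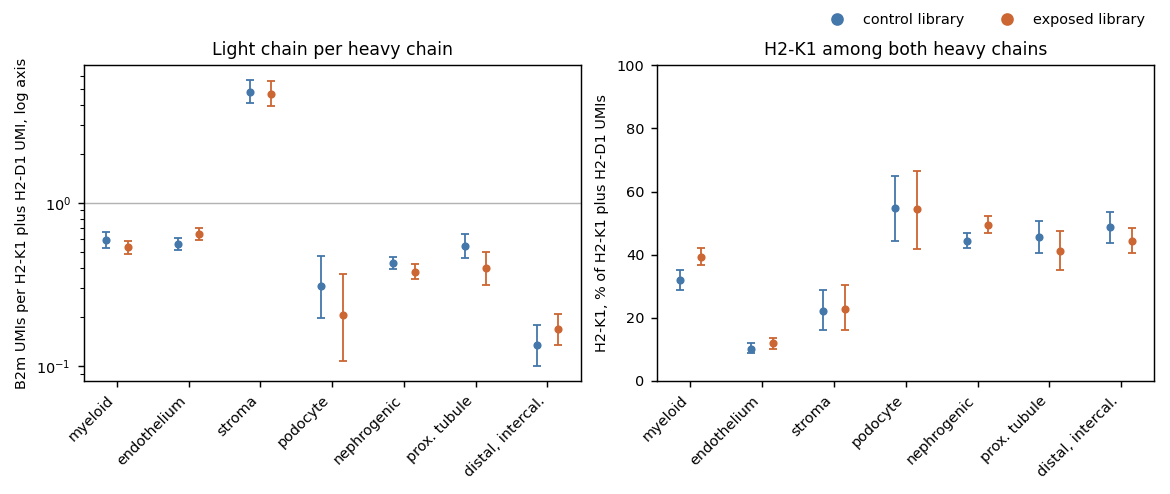
Left, UMIs of B2m per UMI of H2-K1 plus H2-D1 by cluster (log axis); right, H2-K1 as a percentage of H2-K1 plus H2-D1 UMIs, both with exact 95% intervals and both libraries side by side. Stroma-like cells stand at 4.82 and 4.69 on the left, and endothelium-like cells at 10.2% and 11.8% on the right.

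Other class I genes were read from a list of 18 names, of which 7 were measured. The name H2-Ke6 among the 7 is an older one for Hsd17b8, a steroid enzyme gene in the MHC region that is not a class I gene, so 1 of each count is no class I gene. H2-Q7, a non-classical class I gene, was a podocyte-like transcript here, with 354 CPM (318 to 394) in control and 437 (392 to 486) in exposed cells and a UMI in 37.0% and 46.1% of cells. Nephrogenic cells had 14.3 and 18.2 CPM of it and endothelium-like cells 2.75 and 5.58. It has near-identical neighbours in the Q region, so the assignment to H2-Q7 among them is uncertain. H2-T23, the mouse Qa-1 gene, resembled the classical genes, with 95.5 and 115 CPM in the myeloid cluster and 40.8 and 50.2 in endothelium-like cells. Fcgrt, the neonatal Fc receptor, which pairs with the B2m product, had 569 and 795 CPM in the myeloid cluster, and the iron regulator Hfe 141 and 228. Cd1d1, which presents lipids, had 60.9 and 64.6 in endothelium-like cells.

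Psmb8, the inducible subunit that takes the place of Psmb5, had far higher levels in myeloid and endothelium-like cells than in the other named classes. It had 282 CPM (236 to 335) and 423 (363 to 491) in the myeloid cluster and 80.1 (69.5 to 91.9) and 131 (116 to 147) in endothelium-like cells. The next class was 13.6 times lower in control and 17.0 times lower in exposed cells. Nephrogenic cells had 5.70 and 7.70, distal and intercalated-like cells 5.87 and 5.79 and stroma-like cells 4.12 and 5.23. Podocyte-like cells held 1 UMI of Psmb8 in each library, and proximal tubule-like cells 2 and 1.

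Psmb9, which takes the place of Psmb6, had 139 and 237 CPM in the myeloid cluster. Its endothelium-like level was lower, at 14.1 and 28.3, and other named classes had under 5 CPM. Psmb10, which takes the place of Psmb7, was the inducible subunit spread most widely. It had 124 and 159 CPM in the myeloid cluster, 79.7 and 99.4 in endothelium-like cells and 50.4 and 41.1 in distal and intercalated-like cells. Stroma-like cells had 31.1 and 30.4 CPM of Psmb10, nephrogenic cells 24.7 and 23.2, proximal tubule-like cells 16.4 and 10.8 and podocyte-like cells 12.2 and 14.0.

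Set against the standard subunits, the 3 inducible genes made up 4.93% (4.72 to 5.16) of catalytic subunit UMIs over all control cells and 6.18% (5.90 to 6.46) over all exposed cells. In the myeloid cluster the share was 45.2% (41.0 to 49.5) and 57.2% (53.1 to 61.2), and in endothelium-like cells 16.2% (14.8 to 17.6) and 20.9% (19.4 to 22.5). Distal and intercalated-like cells had 6.46% and 5.49%, stroma-like cells 3.68% and 3.56% and nephrogenic cells 3.24% and 3.30%. Podocyte-like cells, at 1.54% and 1.57%, and proximal tubule-like cells, at 1.71% and 1.10%, were at the bottom in both libraries.

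The 3 pairs did not shift together. Psmb8 was 50.2% and 65.8% of Psmb8 plus Psmb5 in the myeloid cluster, 19.2% and 26.1% in endothelium-like cells and at most 2.00% in the other named classes. Psmb9 was 33.3% and 45.5% of its pair in the myeloid cluster but 3.17% and 6.06% in endothelium-like cells. Psmb10 was 54.8% and 59.1% of its pair in the myeloid cluster, 37.3% and 37.0% in endothelium-like cells and still 27.3% and 23.8% in distal and intercalated-like cells. Psmb5 itself was lower in the myeloid cluster, at 280.1 and 220.2 CPM, than over all cells, at 360.1 and 355.5.

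**Figure D4:**
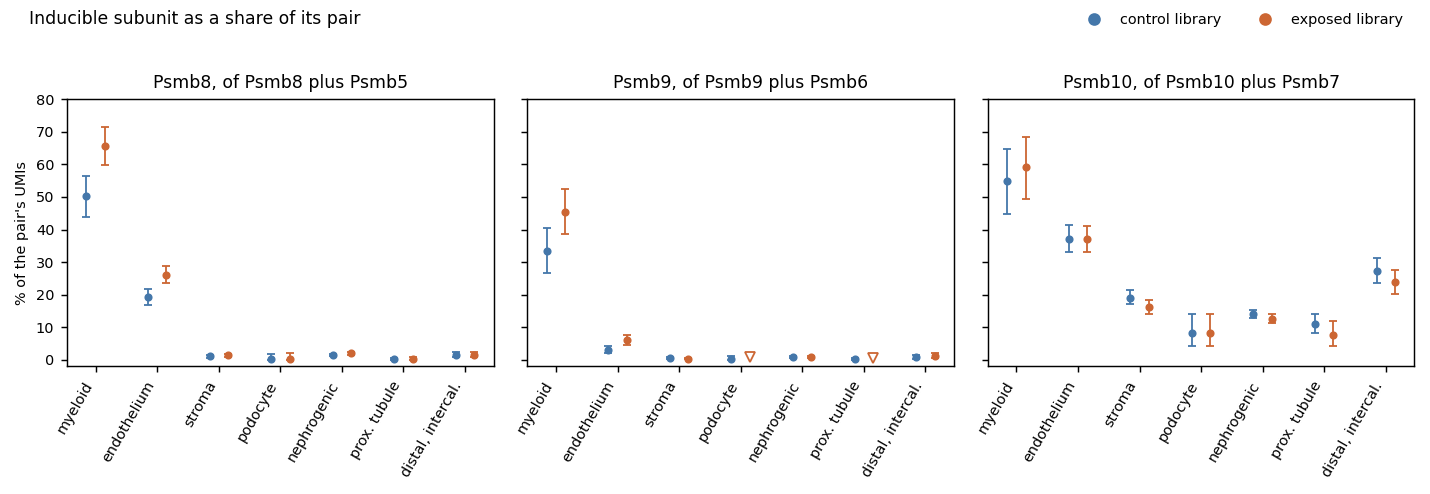
UMIs of each inducible subunit as a percentage of its pair (Psmb8 with Psmb5, Psmb9 with Psmb6, Psmb10 with Psmb7) by cluster, with exact 95% intervals and both libraries side by side. In endothelium-like cells the shares were 19.2% and 26.1%, 3.17% and 6.06%, and 37.3% and 37.0% in turn.

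Psme1, the alpha subunit of PA28, was expressed throughout the kidney. Its level was 332 and 355 CPM in the myeloid cluster and 237 and 258 in endothelium-like cells, and between 107 and 168 in stroma-like, podocyte-like, proximal tubule-like, distal and nephrogenic cells of both libraries. Psme2, the beta subunit, had 185 and 247 CPM in the myeloid cluster, 169 and 172 in endothelium-like cells and 127 and 129 in podocyte-like cells. Stroma-like cells had 103 and 104, nephrogenic cells 95.7 and 96.9, distal and intercalated-like cells 82.2 and 89.7 and proximal tubule-like cells 78.5 and 84.9. Over all cells there were 1.27 and 1.30 UMIs of Psme1 for each of Psme2, with 1.80 and 1.44 in the myeloid cluster. Of the 50-base words near the end of Psme2 transcripts, 65.7% also occur in another gene (Psme2b or Gm7928), so its level is the least certain of the 8.

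The genes that load peptides onto class I, a list of 7 of which 5 were measured, did not share the members' order. Tapbp, the tapasin gene, had 93.4 and 113 CPM in the myeloid cluster, 72.1 and 72.3 in podocyte-like cells, 60.1 and 49.2 in endothelium-like cells and 17.0 and 17.0 in stroma-like cells. Calr, a chaperone of the endoplasmic reticulum, was at 899 and 1033 in proximal tubule-like cells. Erap1, which trims peptides, had 25.5 and 31.1 in endothelium-like cells.

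For several genes, a small number of cells supplied a larger share of UMIs than their share of cells. The myeloid cluster held 2.00% of control and 2.13% of exposed cells and 1.18% and 1.45% of UMIs, but 16.1% and 23.7% of B2m UMIs, 16.4% and 28.9% of H2-K1 UMIs and 17.4% and 24.6% of H2-D1 UMIs. Its part was larger for the inducible subunits, with 26.4% and 28.6% for Psmb8 and 31.1% and 40.9% for Psmb9, and smaller for Psmb10, with 4.84% and 7.10%. Endothelium-like cells, 7.83% and 8.94% of cells, supplied 23.5% and 28.6% of B2m, 35.6% and 35.6% of H2-D1 and 41.5% and 46.4% of Psmb8 UMIs, but only 8.16% and 8.64% of those of H2-K1. The large clusters also supplied much. Nephrogenic cells, 36.8% and 35.7% of cells, supplied 45.5% and 35.6% of H2-K1 UMIs. They supplied 36.9% and 21.5% of Psmb9 and 21.3% and 16.0% of Psmb8 UMIs. Stroma-like cells, 29.4% of cells in each library, supplied 26.65% and 22.67% of B2m UMIs.

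RNA from broken white blood cells can enter any droplet, so the members were set against 11 leucocyte genes that other cell types should lack (C1qa, C1qb, C1qc, Tyrobp, Fcer1g, Lyz2, S100a8, S100a9, Ptprc, Cd52 and Laptm5). In endothelium-like cells those genes had 0.0325% to 0.857% of their myeloid level in control and 0.0689% to 1.37% in exposed cells. B2m had 26.4% and 22.9% of its myeloid level there, H2-D1 37.0% and 27.5%, Psmb8 28.4% and 30.8%, Psmb9 10.2% and 11.9% and H2-K1 9.01% and 5.68%, all far above the leucocyte genes. In stroma-like cells the leucocyte genes had 0.136% to 0.318% and 0% to 0.117%, and Psmb8 1.46% and 1.24%. In proximal tubule-like cells they reached 0.272% and 0.242%, and Psmb8, with 2 and 1 UMIs, had 0.227% and 0.159%. Other classes had more. In nephrogenic cells the highest of the 11 was Ptprc, at 2.67% and 2.13%, and Psmb8 had 2.02% and 1.82%. In distal and intercalated-like cells Ptprc had 2.44% and 5.53%, against 1.70% and 1.84% for B2m, 2.08% and 1.37% for Psmb8 and 1.99% and 2.03% for Psmb9; the next of the 11 genes there had 0.226% and 0.113%. These levels of B2m, Psmb8 and Psmb9 were thus below the Ptprc value, while H2-K1, at 11.5% and 6.59%, was above it. Control podocyte-like cells had S100a9 at 3.56% of its myeloid level, with UMIs in 0.847% of 354 cells, so a few cells carried it; B2m had 2.72% and H2-D1 3.49% there. The part of leucocyte RNA in the lower levels was not tested.

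A pair of endothelium-like clusters could be told apart when both libraries were clustered together. The larger, with Plvap, a gene of fenestrated capillaries, held 615 and 399 cells and had 306 and 417 CPM of B2m, 496 and 582 of H2-D1 and 82.6 and 130.5 of Psmb8. The smaller, with Gpihbp1 and Aplnr, held 124 and 94 cells and had 236 and 389 of B2m, 342 and 478 of H2-D1 and 60.4 and 130 of Psmb8. Both had B2m, H2-D1 and Psmb8 far above the levels in the nephron clusters, while H2-K1, at 28.7 and 62.3 CPM in the smaller, was not above the loop-like cells.

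Across the 10 clusters of each library, Pearson's r of log levels was 0.95 for control and 0.95 for exposed clusters between Psmb8 and Psmb9, 0.91 and 0.95 between Psme1 and Psme2, and 0.87 and 0.90 between H2-K1 and H2-D1. B2m and H2-K1 were less alike, at 0.64 and 0.74. Among 6884 genes, those most like Psmb8 were Srgn (0.98 and 0.99), a proteoglycan of blood cell granules, then Gmfg, S100a4, Fxyd5 and Dusp2. Icam1, an adhesion molecule, was the closest to B2m (0.94 and 0.96), followed by Il10rb, Hexa, Bin1 and Fxyd5. H2-K1 was closest to Ctsb (0.91 and 0.91) and Grn (0.90 and 0.92), both lysosomal, then Ucp2, Arid3a and H2-D1. The points are 10 clusters of 1 library each that share preparation and differ in depth, so the coefficients are descriptive.

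Between the libraries, 4 of the 8 genes were higher in the exposed library over all cells and 0 were lower, counting a gene with at least 50 UMIs whose CPM plus 10 differed by a ratio of 5 to 4 or more. By the same measure 0.728% of all genes were higher and 0.795% lower. The 4 were B2m, with 81.7 control and 109.9 exposed CPM (ratio 1.35, 1.28 to 1.42), H2-K1 at 42.9 and 66.5 (1.55, 1.45 to 1.66), H2-D1 at 86.4 and 120.3 (1.39, 1.33 to 1.46) and Psmb8 at 12.6 and 21.5 (1.71, 1.52 to 1.93). Psmb9, at 5.26 and 8.40, had a ratio of 1.60 (1.32 to 1.94) and was too low to pass. Psmb10, Psme1 and Psme2 had ratios of 1.08, 1.09 and 1.06. The median log2 ratio was 0.33 over the 8 genes and 0.04 over all genes.

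Once every cell with UMIs of at least 2 different leucocyte genes was left out, which removed the whole myeloid cluster, 1 of the 8 genes was past the fold. It was Psmb8, with 8.23 control and 13.2 exposed CPM, and the median log2 ratio was 0.17. The share of all genes past the fold without these cells was not computed, so the count has no background. B2m then stood at 67.5 and 80.8, H2-K1 at 34.4 and 44.7 and H2-D1 at 69.4 and 87.4.

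Within the myeloid cluster 7 of the 8 genes were higher in the exposed library, against 20.8% of all genes there, and 0 were lower, against 12.5%. H2-K1 had the highest ratio, 2.22 (1.92 to 2.58), then Psmb9 with 1.71 (1.23 to 2.38), B2m with 1.61 (1.44 to 1.80), H2-D1 with 1.60 (1.43 to 1.78) and Psmb8 with 1.50 (1.19 to 1.90). The intervals of Psmb10 (1.29, 0.887 to 1.87), Psme2 (1.34, 0.994 to 1.81) and Psme1 (1.07, 0.845 to 1.35) included 1. The median log2 ratio was 0.62 over the 8 genes and 0.05 over all genes of the cluster. As the macrophage-like share of the cluster differed between the libraries, macrophage-like and neutrophil-like cells were also read apart.

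In macrophage-like cells (107 and 90), 7 of 8 genes were higher in the exposed library, against 17% of all genes. B2m was at 1325 and 1879 CPM (ratio 1.42, 1.248 to 1.61), H2-K1 at 794 and 1475 (1.86, 1.59 to 2.18) and Psmb10 at 84.5 and 165 (1.95, 1.20 to 3.26). In neutrophil-like cells (98 and 50), 7 of 8 were higher, against 23.8% of all genes. There B2m was at 736 and 1198 (1.63, 1.31 to 2.02), H2-K1 at 339.9 and 785 (2.31, 1.72 to 3.12) and Psmb8 at 318 and 668 (2.10, 1.53 to 2.88), while Psmb10, at 168 and 165, had a ratio of 0.98. The gene below the fold was Psme1 in macrophage-like cells and Psmb10 in neutrophil-like cells. In the neutrophil-like class 5 neutrophil markers passed the marker rule, against 9 of another class. Its name came from its leading genes, among them S100a8, S100a9 and Retnlg. The neutrophil-like class was itself an unlike mix in the libraries. Of its cells, 78 control and 32 exposed came from the myeloid cluster, and 15 and 17 from the nephrogenic cluster. S100a8, a neutrophil marker, stood at 36.6 CPM in control and 0.159 in exposed nephrogenic cells. The part of this mix in the ratios was not tested.

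In endothelium-like cells 4 of the 8 were higher, against 6.74% of all genes, and 0 lower, against 5.15%. Psmb8 had 80.1 and 131 CPM (ratio 1.63, 1.36 to 1.96) and Psmb9 14.1 and 28.3 (2.01, 1.31 to 3.12). B2m, at 295 and 412, had a ratio of 1.40 (1.27 to 1.54), and H2-K1, at 53.8 and 75.3, had 1.40 (1.11 to 1.77). H2-D1, at 473 and 561, differed less, with a ratio of 1.19 (1.09 to 1.29). Exposed endothelium-like cells were deeper, with a median of 3311 UMIs against 2650; after every cell was thinned to 2000 UMIs, B2m was found in 40.5% of 459 control and 57.5% of 405 exposed cells. The summed macrophage list was 82.1 and 170.5 CPM in these cells, and without cells holding leucocyte genes the log2 ratios were 0.45 for B2m, 0.38 for H2-K1 and 0.64 for Psmb8.

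None of the members tested was past the fold in the authors' stroma-like cells (0 of 7, against 1.65% of all genes higher and 1.98% lower), podocyte-like cells (0 of 4, against 8.49% and 9.7%), nephrogenic cells (0 of 8, against 1.82% and 4.72%) or high-mitochondrial proximal tubule-like cells (0 of 1, against 10.4% and 33.1%). H2-K1 in nephrogenic cells, at 41.5 and 53.0 CPM, had a ratio of 1.28 (1.15 to 1.42). The joint clusters gave some calls in such cells. H2-K1 was higher in differentiating nephron-like cells, at 27.6 and 41.9 CPM (1.52), against 1.89% of all genes. In the early differentiating cells with Wnt4 and Lhx1, 800 of the 1051 control and 516 of the 717 exposed cells, its ratio was 1.11 (0.843 to 1.46). In cells with Osr2 and Cdh6, 216 and 175 cells of that class, it was 1.63 (1.21 to 2.21). By these cell counts the mix of the class differed somewhat between the libraries, and its part in the ratio of the class was not tested. In progenitor-like cells H2-K1 (1.51, 0.928 to 2.48) and H2-D1 (1.76, 1.03 to 3.02) were higher, from 27 to 38 UMIs in each library, against 6.37% of all genes. In the podocyte-like class, which here takes in the cells with Tagln, Pcp4 and Wt1, H2-K1 (1.46, 1.13 to 1.90) and H2-D1 (1.48, 1.095 to 1.99) were higher, against 6.6% of all genes. In the authors' distal and intercalated-like cluster 2 of 6 were higher, B2m (1.74, 1.24 to 2.46) and H2-D1 (1.51, 1.27 to 1.80), against 22.3% of all genes higher and 3.37% lower. That cluster was not alike in the libraries. It held collecting duct-like cells, 13.1% of its cells, in the exposed library, and the loop genes Slc12a1 and Umod were among its leading genes only there. In the matching class of the joint clusters the B2m ratio was 0.90 and that of H2-D1 1.03. In proximal tubule-like cells H2-D1 was higher, at 69.3 and 102.5 CPM (1.48, 1.19 to 1.83), and Psmb10 lower (0.66, 0.351 to 1.18), against 7.24% of all genes higher and 7.05% lower.

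**Figure D5:**
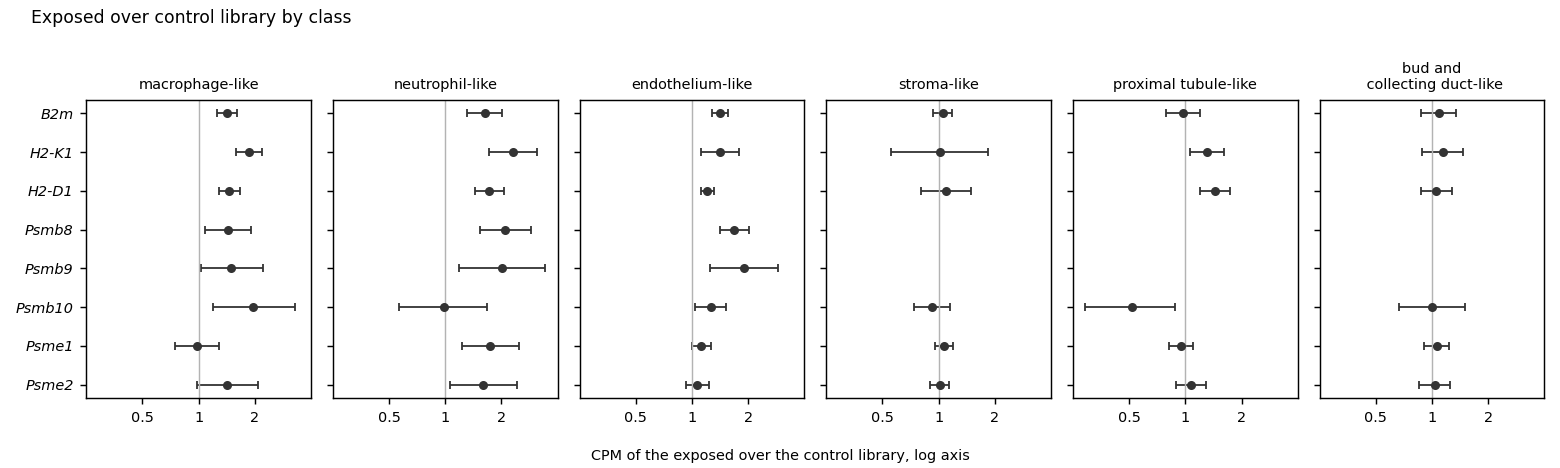
Ratio of exposed to control CPM for each gene (log axis, exact 95% intervals for counting error) in classes of the joint clusters; genes with under 50 UMIs over both libraries are not drawn. H2-K1 stood at 1.86 in macrophage-like and 2.31 in neutrophil-like cells, and Psme1 at 0.98 in macrophage-like cells.

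A joint cluster of cells with Tagln, Pcp4 and Wt1, near the podocyte-like cells, had 58.1 CPM of H2-K1 in 250 control cells and 122.6 in 143 exposed cells (ratio 2.11, 1.50 to 2.98). H2-D1 differed there in the same direction, at 47.3 and 92.3 CPM (1.95, 1.33 to 2.89). The other podocyte-like joint cluster had 51.5 and 44.1 of H2-K1 and 36.8 and 36.0 of H2-D1. Between these podocyte-like clusters, only the one with Tagln, Pcp4 and Wt1 thus had the higher exposed levels, and 12.55% of all genes were higher there. Other nephron clusters varied: the H2-K1 ratio was 1.63 (1.21 to 2.21) in cells with Osr2 and Cdh6. In cells with Irx1 and Epcam it was 0.952 (0.746 to 1.21).

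Genes around the members gave the setting of these differences. Of 31 interferon-stimulated genes listed, 18 were measured; over all cells 5 were higher in the exposed library and 0 lower, against 0.728% and 0.795% of all genes, among them Isg15 (5.84 and 20.7 CPM), a ubiquitin-like modifier, and Bst2 (73.7 and 116), which tethers virus particles. In endothelium-like cells 9 of the 16 with enough UMIs were higher and 0 lower, against 6.74% and 5.15% of all genes, with Isg15 at 49.9 and 150.1 and Rtp4 at 40.8 and 111. In the myeloid cluster 11 of 16 were higher, against 20.8%, and 1 lower, against 12.5%. The lower gene was Ifitm1, at 376 and 44.0. Stroma-like cells had 6 of 17 higher and 1 lower, against 1.65% and 1.98%, although 0 of the members were past the fold there. Distal and intercalated-like cells had 8 of 10 higher, against 22.3%. Nephrogenic cells had 3 of 16 higher and 1 lower, against 1.82% and 4.72% of all genes. Proximal tubule-like cells had 1 of 5 higher, against 7.24%. Podocyte-like cells had 0 of 4 higher and 2 lower, against 8.49% and 9.7%. The list was chosen with earlier results of these libraries known, and it is not independent evidence of a direction.

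By contrast, the standard subunits Psmb5, Psmb6 and Psmb7 and 11 other core proteasome genes had 0 members past the fold over all cells and in endothelium-like cells. Of all genes, 0.728% were higher and 0.795% lower over all cells, and 6.74% and 5.15% in endothelium-like cells. In the myeloid cluster, Psmb5 was lower, at 280.1 and 220.2 CPM, and Psma2 and Psma4 were higher. Of the 5 peptide-loading genes 0 were past the fold over all cells, and in the myeloid cluster Pdia3 was higher. Of 13 measured regulators, 9 had enough UMIs in the myeloid cluster. There 2 of the 9, Irf1 and Irf8, transcription factors of the interferon response, were higher, a share near the 20.8% of all genes, and the receptor gene Ifngr1 was lower. In endothelium-like cells Irf8 and Socs1 were higher, 2 of 13, against 6.74% of all genes. In distal and intercalated-like cells 7 of 10 were higher, against 22.3% of all genes. Class II genes did not share one direction in the myeloid cluster, with Cd74, the invariant chain, at 512 and 827 CPM but H2-Eb1 at 274 and 162.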

How the data were processed

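Single-cell libraries of whole kidney were processed by the authors with Cell Ranger 2.2.0 on mm10, per the submitters' processing notes. Deposited by the authors were UMI counts per gene and cell, log2 values (the log2 of the count over a factor per cell, plus 1), and a table of cells that gives, per the file headers, the percent of mitochondrial UMIs, a doublet score per cell and a cluster number. Their criteria for choosing cells and genes were not given in the sources used here.

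Counts were summed per cluster and divided by the UMIs of the 8930 shared genes, which hold 99.4% of UMIs. Members and gene lists were chosen with earlier results of these data known. The 9 members were all named. For B2m, H2-K1 and Psmb8 the 5 genes with the highest Pearson's r of log2(CPM + 10) over clusters (the lower of the 2 libraries, at least 500 UMIs in each) were named too, and other genes only as members of a list or as markers. Clusters were named where at least 3 markers of a class were found in 10% of cells at 2 times the level of the rest. An exception was the exposed cluster of 191 cells, left unnamed although 7 loop and distal tubule markers passed. Haemoglobin genes led it, and 85.9% of its cells fell in the loop and distal tubule class of the joint clusters. For the joint clusters, counts scaled to 10000 per cell, 2000 variable genes, 30 components, 15 neighbours and resolution 1 were used. A joint cluster took the class that led among its leading genes where this was not the class with most markers. At least 3 markers of the class taken had to pass. No doublet caller was run. Cells with the authors' hybrid score above 1 (584 control, 277 exposed) were left out as an alternative. Intervals are exact Poisson (levels), Clopper-Pearson (shares) and conditional binomial (ratios), and treat UMIs as independent draws. With 1 library per group no test was made, and nothing says that the libraries' cells came from separate animals. The intervals of ratios and the fold rule were tried on Poisson counts simulated from the endothelium-like totals. Such counts hold no spread between cells, so that spread was not tested. Genomic words were compared on annotated transcripts, and promoters came from RefSeq. Python 3.11.15, numpy 2.4.6, pandas 2.3.3, scipy 1.17.1, scanpy 1.11.5, igraph 0.11.9 and matplotlib 3.10.9 were used.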

Additional observations from a re-analysis of the deposited data

How the results depend on the processing

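No paired analysis was possible because each group has 1 library, and for the same reason no library could be left out. Of the 8 genes, 4 were higher past the fold over all cells, against 0.728% of all genes. Once cells holding leucocyte genes were left out 1 was, and the share of all genes was not computed there. The median log2 ratio, 0.33, was then 0.17. The immunoproteasome shares, 4.93% and 6.18%, were then 4.20% and 4.75%. A pseudocount of 1 CPM gave a median of 0.45. The shares were 5.24% and 7.22% after thinning to 2000 UMIs and 5.89% and 7.81% as means over cells. In the myeloid cluster the log2 ratio of Psmb10 was -0.027 after thinning and -0.021 in neutrophil-like cells. B2m in distal cells was at -0.11 in the joint clusters, and Psmb10 in proximal tubule-like cells at 0.46 after thinning; the cause of these changes was not tested. Of 15 differences past the fold within clusters, 13 kept their direction after thinning, 14 in the joint clusters, and all 15 on the authors' log2 values, without cells over 25% mitochondrial UMIs, without likely doublets and without the 5 cells with most UMIs. The joint clusters read 1 by 1 and the neutrophil-like cells were added after the data were seen. Psmb8 and Psmb9 had too few UMIs to be ranked among podocyte-like and proximal tubule-like cells.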
